A study of Mus musculus with 6 samples.

Results

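The genes described here are 37 DNA damage response and repair genes, read from a table of ribosome footprint levels in mouse oocytes. They were chosen by name, as checkpoint kinases and as genes of homologous recombination, Fanconi, mismatch and end-joining repair, and they are 37 of the 22416 genes in the table. All 37 had a row and all entered the test. The footprints came from Ribo-lite, a form of ribosome profiling for small numbers of cells that sequences the mRNA fragments shielded by a ribosome. There were 6 libraries in 3 groups of 2, each made from 500 pooled oocytes. WT_FGO held fully grown oocytes at the germinal vesicle (GV) stage, and WT_MII held control oocytes matured to metaphase II. Treat_MII held treated oocytes labelled as metaphase II. The question for these genes was how ribosome occupancy changed between the GV stage and metaphase II, and whether the treatment changed it.

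All groups had the genotype WT, and the labels list no deletion or transgene. The methods give a C57BL/6 background and 4-week-old females that received 5 IU of pregnant mare serum gonadotropin 44 h before the oocytes were collected. The labels call the last group only Treat. The methods and results of the study give the agent as BYBX, a ligand that stabilizes RNA G-quadruplexes (folded structures of G-rich RNA), and DMSO as the control at both stages. The study reports that polar body emission fell as the ligand concentration rose. Only a small share of treated oocytes reached metaphase II, and the study found abnormal spindles in them. How the oocytes of Treat_MII were picked is not stated, and their stage was not tested here. A supplementary legend of the study calls the libraries of a group biological replicates. Whether they came from separate females or from separate cultures is not stated, so every p-value measures only the spread between these libraries.

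A cell that finds a DNA break starts a kinase cascade. ATM and ATR sense breaks and bare single strands, CHEK1 and CHEK2 carry the signal to the cell cycle, and adaptor proteins on the surrounding chromatin decide between rejoining the ends and copying an intact template. Homologous recombination copies the template with BRCA1, BRCA2 and their partners, end joining ligates the ends directly, the Fanconi pathway unhooks crosslinks between strands, and mismatch repair removes copying errors. Fully grown oocytes are arrested in meiotic prophase and hold stored mRNAs. They stop transcription before they resume meiosis, so the proteins made during maturation come from these stored mRNAs, some of which are translated only after the GV breaks down. Elements in the 3′-UTR, among them the U-rich cytoplasmic polyadenylation element, are known to control when such mRNAs are translated.

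The level of a gene is given in FPKM, fragments scaled to the length of the coding sequence and to the reads of the library, so levels can be set between genes. A single read in 1 kb of coding sequence was worth 10.6 and 9.32 FPKM in WT_FGO, 6.06 and 4.33 in WT_MII, and 3.02 and 3.63 in Treat_MII. Whole reads could be recovered for 36 of the 37 genes, all but Fancb. Of these 36 genes, 18 had at least 60 reads over the 6 libraries and the other 18 had 4 to 59. The GV libraries were the shallowest. In the 2 GV libraries 18 and 16 of the 36 genes had 3 reads or fewer, against 10 and 9 in WT_MII and 5 and 7 in Treat_MII. FPKM values are shares of a library, and RNA-seq was not analysed here, so more mRNA and more ribosomes per mRNA cannot be told apart. Each library was made from 500 oocytes, and these shares do not show the amount of RNA per cell.

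The libraries carried oocyte footprints throughout, with 12 or 13 of 13 oocyte markers above 0. One of them stood apart. The 14 granulosa or cumulus cell markers summed to 1312 FPKM in WT_FGO replicate 2 and to between 100 and 153 FPKM in the other 5 libraries. In that library 9 of the 14 were above 0, led by Inha with 747 FPKM, while Has2, Ptgs2, Ptx3, Tnfaip6 and Nr5a2 were at 0, and in the other 5 libraries 4 to 9 were above 0. Cyp19a1, also on the list, was lowest there, at 24.7 FPKM against 32.1 to 57.7 in the other 5 libraries. That library is named below for its marker sum alone, and its cell content was not tested. Its part in the maturation results was not tested, and those results are given without it below. Between the replicates of a group, the levels of the 37 genes had a Spearman correlation of 0.666 in WT_FGO, 0.753 in WT_MII and 0.813 in Treat_MII, across genes, which are not independent.

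Together the 36 genes with recovered reads took a larger share of the reads at metaphase II than at the GV stage. They held 0.254% and 0.282% of the recovered reads in WT_FGO, 0.420% and 0.457% in WT_MII, and 0.465% and 0.476% in Treat_MII. Both metaphase II groups lay above both GV libraries. Most of the rise in summed level was Chek1, which made up 4.89% and 9.12% of the genes' reads in WT_FGO, 23.2% and 26.8% in WT_MII and 27.4% and 28.8% in Treat_MII. In FPKM, which Fancb has too, the 36 genes other than Chek1 summed to 726 and 671 in WT_FGO, 850 and 850 in WT_MII, and 843 and 840 in Treat_MII. The sum for homologous recombination was 163 and 155 FPKM in WT_FGO, 304 and 283 in WT_MII, and 243 and 238 in Treat_MII. Both treated libraries lay between the GV and the control metaphase II libraries. The sum for break sensing was 189 and 185 FPKM in WT_FGO, 185 and 124 in WT_MII, and 182 and 155 in Treat_MII, and these ranges overlapped.

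**Figure D1:**
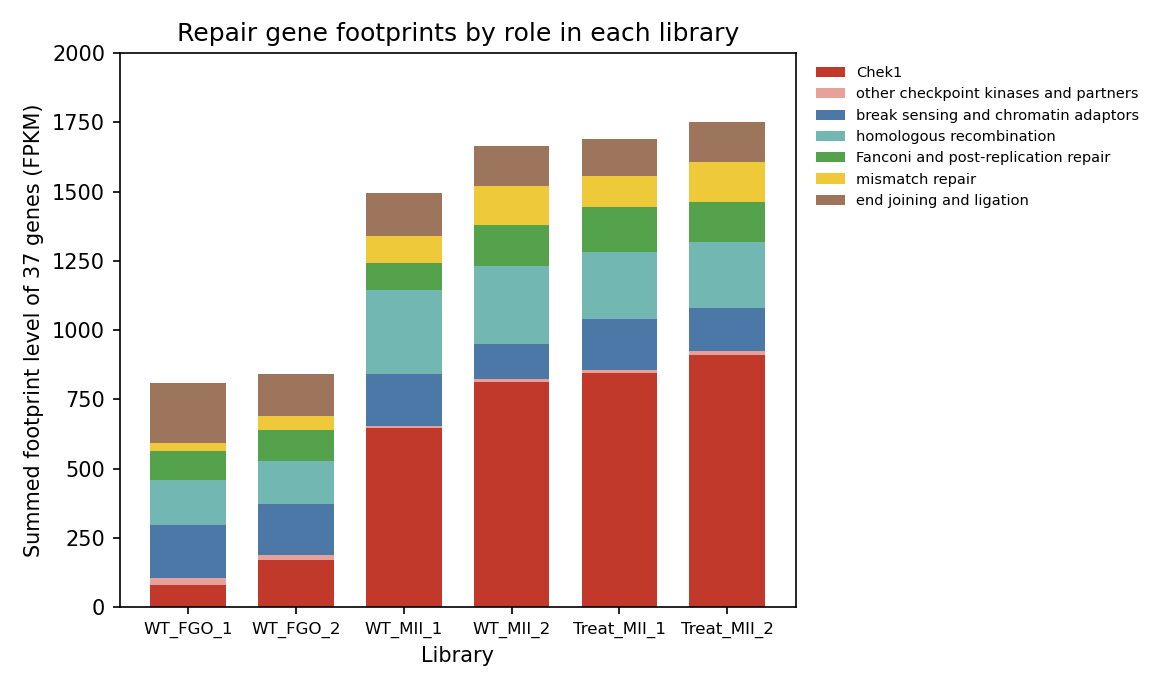
Summed footprint level in FPKM (vertical axis, from 0) of the 37 genes in each of the 6 libraries, stacked by role with Chek1 apart. The sums are 808 and 841 FPKM in WT_FGO, 1495 and 1663 in WT_MII and 1689 and 1750 in Treat_MII, and Chek1 is the largest single block in the 4 metaphase II libraries.

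From the GV stage to metaphase II, 4 of the 37 genes rose and 0 fell in the limma test (adjusted p under 0.05 over all 15127 genes tested). The 4 were Chek1, Trp53bp1, Msh6 and Bard1, which belong to 4 different roles. Over all tested genes 3.67% were called higher and 3.09% lower. Among the genes with at least 60 reads, 4 of the 18 repair genes (22.2%) were called higher and 0 lower, beside 16.3% and 8.39% of all 2706 such genes. Centred on the median log2 ratio the same 4 repair genes were called, while the calls over all genes moved from 555 higher and 468 lower to 719 higher and 304 lower. At an unadjusted p under 0.05, 7 of the 37 were higher (background 9.65%) and 3 were lower, Fanca, Mdc1 and Parp1 (background 13.1%). With voom on the recovered reads, another limma test, 6 were called higher, the same 4 with Fancm and Palb2 (background 5.51%), and 3 lower, Atr, Fanca and Mdc1 (background 10.8%). The median difference on the log2(FPKM + 1) scale was -0.15 over the 37 genes and -0.44 over all tested genes. For the 18 repair genes with at least 60 reads it was 0.67, with 12 above 0, beside 0.23 for all such genes. The limit of 60 reads sums all 6 libraries. The GV libraries held 88663 and 101108 recovered reads and the metaphase II libraries 156234 to 313872. Genes high at metaphase II therefore pass the limit more readily. This tilts the values under it upward, for all genes as for the repair genes, and no rise is inferred from them.

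The fit took a single spread per gene from all 3 groups, so each SE at maturation draws on the treated libraries too. The replicates were not equally close in each group. Over the 2706 genes with at least 60 reads, the SD of their log2 difference was 1.54 in WT_FGO, 1.03 in WT_MII and 0.499 in Treat_MII. Without either Treat_MII library, or with only the WT_FGO and WT_MII libraries, none of the 37 was called at maturation, and without either WT_MII library only Bard1 was. Without WT_FGO replicate 2, the library with the largest sum of granulosa or cumulus markers, Bard1, Chek1 and Trp53bp1 were called again. Fancd2 was then called higher and Mdc1 lower, while Msh6 was not called. Without WT_FGO replicate 1, 6 were called, with Palb2 higher and Mdc1 lower beside the 4. With a fit that gave all genes a common prior spread, with no trend over the level, only Bard1 was called.

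Of the 5 checkpoint kinases and partners, Chek1 passed the test at maturation and the other 4 did not. Chek1 (chr9:36708482-36727065, minus strand, mm10) encodes the kinase that passes the ATR signal to the cell cycle, and it had the highest level of the 37 genes in each group. It was read at 81.7 and 169.8 FPKM in WT_FGO, 645.2 and 812.8 in WT_MII, and 845.5 and 909.6 in Treat_MII. All 4 metaphase II libraries lay above both GV libraries. The rise at maturation was 2.61 ± 0.39 on the log2(FPKM + 1) scale (SE, adjusted p = 0.0189, limma, n = 2 per group). The recovered reads were 11 and 26 in WT_FGO and 152 and 268 in WT_MII. Both treated libraries were above both control libraries, by 0.28 ± 0.39 on the log2 scale (95% interval -0.69 to 1.24), and this difference was not called (adjusted p = 0.992, limma).

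Atr, the upstream kinase, pointed the other way at maturation. Its levels were 21.4 and 16.5 FPKM in WT_FGO, 6.89 and 3.83 in WT_MII, and 7.24 and 6.41 in Treat_MII. The 4 metaphase II libraries lay below both GV libraries, but the difference of -1.68 ± 0.74 did not pass the test (SE, adjusted p = 0.254, limma), though voom called it lower. Atm, Atrip and Chek2 had 17, 7 and 4 reads over all 6 libraries. Levels of Atm were 0.787 to 3.45 FPKM, and those of Atrip and Chek2 were 0 in 4 and 4 libraries, and none of the 3 genes was called.

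Of the chromatin adaptors, Trp53bp1 rose. It encodes 53BP1, which holds broken ends together and favours end joining. Its locus is chr2:121193281-121271407 (minus strand, mm10). Levels of Trp53bp1 were 1.78 and 4.69 FPKM in WT_FGO, 90.4 and 74.7 in WT_MII, and 97.6 and 85.7 in Treat_MII. The GV libraries held 1 and 3 reads of it and the metaphase II libraries 89 to 193, without overlap. The difference was 4.39 ± 0.58 on the log2(FPKM + 1) scale (SE, adjusted p = 0.0128, limma). Per library read, the ratio of the summed counts was 24.3, with an exact 95% counting interval of 9.34 to 90.1 that covers counting error only.

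Mdc1, the adaptor that spreads the damage signal along chromatin, was lower at metaphase II without passing the test. It was read at 55.9 and 58.2 FPKM in WT_FGO, 11.8 and 9.30 in WT_MII, and 10.01 and 9.91 in Treat_MII. The 2 GV libraries lay well above all 4 metaphase II libraries. The difference of -2.34 ± 0.57 had an adjusted p of 0.0704 (SE, limma), and it was called among genes averaging 5 FPKM or more (adjusted p = 0.0471), among those with 60 reads or more (0.00798), with voom (0.000528), and without WT_FGO replicate 1 (0.0463) or 2 (0.0489). Rad50, a subunit of the MRN complex that binds broken ends, was at 45.8 and 47.4 FPKM in WT_FGO, 24.6 and 11.003 in WT_MII, and 21.5 and 27.7 in Treat_MII. Its 4 metaphase II values were below both GV values, with a difference of -1.44 ± 0.61 that was not called (adjusted p = 0.230, limma). Parp1, which marks breaks with ADP-ribose chains, had 59 reads and a difference of -1.85 ± 0.74 (adjusted p = 0.211, limma). The other MRN subunits, Mre11a and Nbn, had 40 and 46 reads and ranged from 0 to 25.8 and from 5.77 to 47.1 FPKM.

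In homologous recombination Bard1 rose and the other 8 genes were not called in the limma test on all 6 libraries. Palb2 was called higher with voom (adjusted p = 0.0178), among genes with 60 reads or more (0.0465) and without WT_FGO replicate 1 (0.0155). BARD1 is the partner that BRCA1 needs to act as a ubiquitin ligase, and the gene lies at chr1:71027498-71103146 (minus strand, mm10). Bard1 was listed at 0 in both WT_FGO libraries, at 55.5 and 50.95 FPKM in WT_MII, and at 39.5 and 33.2 in Treat_MII. Set against a floor of 3 reads in each GV library, its WT_MII mean was at least 4.09-fold higher. The limma fit called it (adjusted p = 0.00784). Both treated libraries lay below both control libraries, but above 0, with a difference of -0.54 ± 0.65 (95% interval -2.14 to 1.05, adjusted p = 0.982, limma).

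Brca1 itself, which directs the repair of breaks by recombination, was read in every library. Its levels were 31.2 and 49.7 FPKM in WT_FGO, 58.0 and 83.7 in WT_MII, and 84.4 and 81.4 in Treat_MII. The GV values were the lowest, and the difference of 0.81 ± 0.47 was not called (adjusted p = 0.407, limma). Brca2, which acts in the repair of breaks by recombination, was read at 5.31 and 0.934 FPKM in WT_FGO, 10.3 and 11.3 in WT_MII, and 16.6 and 15.3 in Treat_MII. All metaphase II values were above the GV values, with a difference of 1.75 ± 0.88 (adjusted p = 0.322, limma). Palb2, which joins BRCA1 to BRCA2, was at 24.6 and 5.41 FPKM in WT_FGO, 56.3 and 62.8 in WT_MII, and 24.5 and 28.4 in Treat_MII. It had its highest levels in the control metaphase II libraries, both above the treated and the GV libraries, with a maturation difference of 2.24 ± 0.77 (adjusted p = 0.152, limma).

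Blm, a helicase that takes apart recombination intermediates, was at 26.3 and 56.8 FPKM in WT_FGO, 43.8 and 41.0 in WT_MII, and 39.5 and 31.1 in Treat_MII, and its GV and metaphase II values overlapped, while both treated values were below both control values (difference -0.27 ± 0.56, adjusted p = 1, limma). The 4 other recombination genes had 9 to 37 reads. Among them Rad54l, a motor protein of recombination, went from 4.73 and 0 FPKM in WT_FGO to 10.8 and 19.3 in WT_MII and 16.2 and 16.2 in Treat_MII. Its difference of 2.69 ± 1.1 was not called (adjusted p = 0.200, limma). Rad51b, Rad51c and Xrcc2 ranged from 0 to 63.4 FPKM and their groups overlapped in both comparisons.

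None of the 8 Fanconi and post-replication genes was called at maturation in the limma test on all 6 libraries, while voom called Fancm higher and Fanca lower, and Fancd2 was called higher without WT_FGO replicate 2. Fancd2 and Fanci, the pair of proteins that the pathway marks with ubiquitin at a crosslink, were read in all 6 libraries. Fancd2 was at 9.54 and 31.5 FPKM in WT_FGO, 36.8 and 35.1 in WT_MII, and 35.3 and 33.5 in Treat_MII. Fanci was at 18.5 and 30.2 FPKM in WT_FGO, 24.2 and 28.1 in WT_MII, and 15.8 and 21.7 in Treat_MII. The metaphase II levels of Fancd2 lay above its GV levels and those of Fanci did not. Rad18, a ubiquitin ligase for stalled forks, was at 19.1 and 16.8 FPKM in WT_FGO, 14.5 and 46.7 in WT_MII, and 57.9 and 52.2 in Treat_MII. Of its control metaphase II values, 1 was below and 1 above both GV values. Fancm, a translocase that recruits the core complex, was listed at 0 in both GV libraries and was at 10.9 and 5.68 FPKM in WT_MII, at least 1.69-fold above the floor (adjusted p = 0.106, limma). Fanca, a subunit of that complex, had 23 reads, with 16.7 and 14.7 FPKM in WT_FGO and 1.37 and 0.976 in WT_MII, a difference of -2.95 ± 0.98 that was not called (adjusted p = 0.141, limma). Fancc and Fancl had 17 and 19 reads, and Fancb ranged from 0 to 24.9 FPKM.

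Msh6 was the mismatch repair gene that rose. MSH6 takes part in finding single mismatched bases, and the gene lies at chr17:87975062-87990892 (plus strand, mm10). It was read at 15.5 and 11.4 FPKM in WT_FGO, 90.3 and 124.8 in WT_MII, and 94.4 and 133.8 in Treat_MII. The 4 metaphase II libraries lay above both GV libraries, with a difference of 2.90 ± 0.47 (adjusted p = 0.0231, limma). Of the 28-base words in the coding sequence of Msh6, 11.7% are also in Gm11855, so some of its reads could be split between the genes. Msh3 and Pms2 had 42 and 21 reads, and 12.2% of the words of Pms2 are shared with Gm42421.

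None of the 6 end-joining and ligation genes was called at maturation by limma or by voom. Xrcc5 and Xrcc6 encode the Ku proteins that cap a broken end. Xrcc5 was at 77.3 and 63.7 FPKM in WT_FGO, 52.4 and 55.2 in WT_MII, and 55.0 and 59.5 in Treat_MII, with a difference of -0.38 ± 0.41 at maturation. The GV values were the highest, and this difference turned to 0.15 when the libraries were centred. Xrcc6 was at 87.2 and 20.4 FPKM in WT_FGO, 43.2 and 18.99 in WT_MII, and 28.1 and 13.9 in Treat_MII, with overlapping groups. Prkdc, the kinase that Ku recruits, was at 10.3 and 11.3 FPKM in WT_FGO, 5.87 and 8.39 in WT_MII, and 7.07 and 11.4 in Treat_MII. Its control metaphase II values were below the GV values and its treated values overlapped both. Lig4, the ligase of the pathway, was at 3.88 and 3.41 FPKM in WT_FGO, 8.87 and 30.1 in WT_MII, and 24.3 and 33.2 in Treat_MII. The metaphase II levels of Lig4 were all above its GV levels, with a difference of 1.92 ± 0.81 (adjusted p = 0.230, limma). Xrcc4 and Lig3 had 31 and 23 reads.

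**Figure D2:**
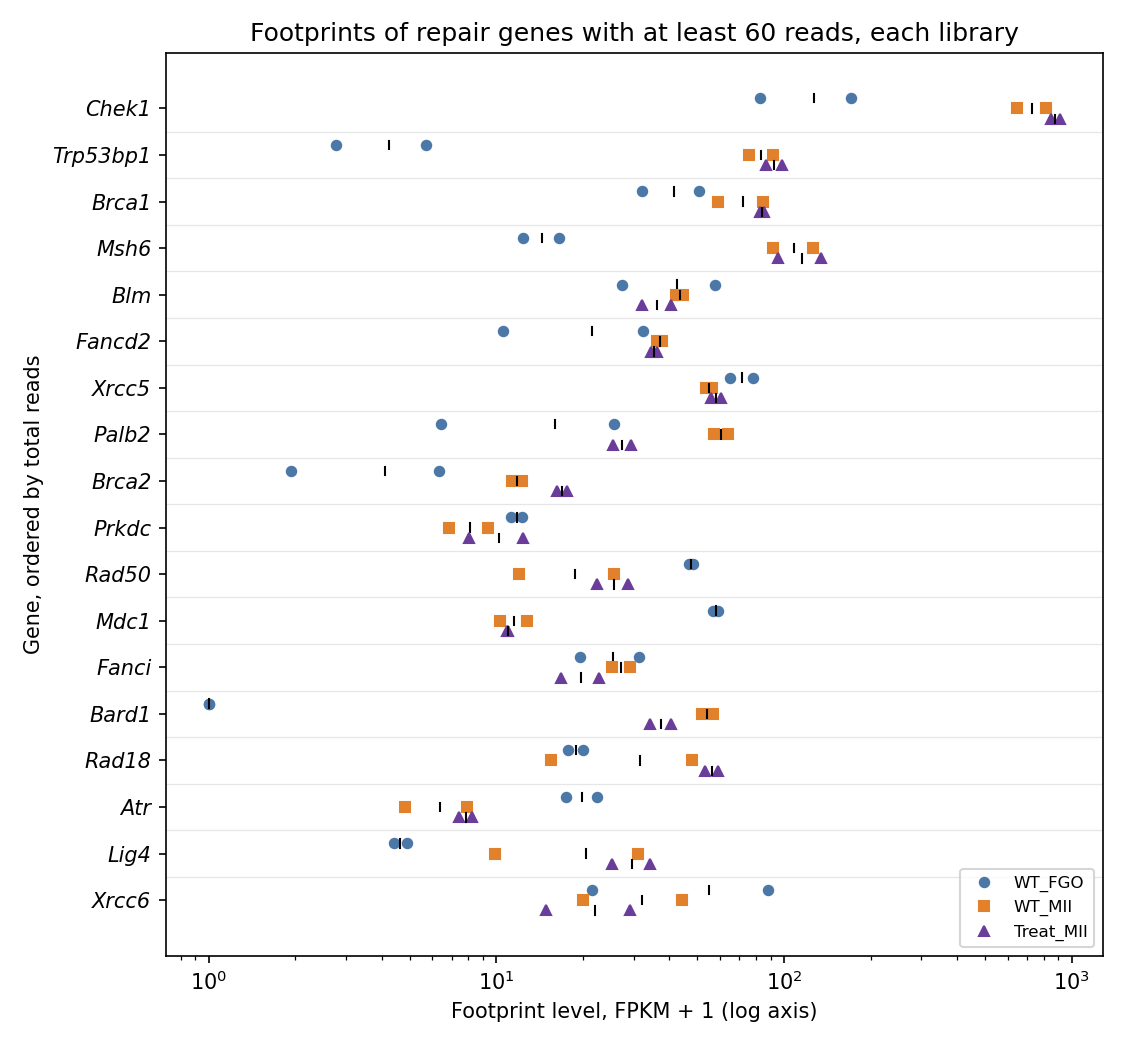
Footprint level of the 18 genes with at least 60 reads, as FPKM + 1 on a log axis (horizontal), in each of the 6 libraries (points) with the group mean (tick). The WT_FGO points of Chek1, Trp53bp1, Msh6 and Bard1 lie to the left of all metaphase II points, those of Mdc1 lie to the right, and the treated points of Palb2 lie to the left of its WT_MII points.

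Counted by overlap alone, 11 of the 37 genes had both WT_MII libraries above both WT_FGO libraries (background 15.3%) and 7 had both below (background 25.8%). By the ratio of mean FPKM + 1, 10 genes were past 2-fold higher (background 23.6%) and 9 past 2-fold lower (background 41.8%). Centred on the median log2 ratio, these counts were 14 (background 28.3%) and 6 (background 33.3%).

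With the treatment, none of the 37 genes was called in either direction (limma, background 0% higher and 0% lower), and none had an unadjusted p under 0.05, against 3.81% higher and 2.02% lower over all genes. With voom, 0 were called (background 0.447% higher and 0.688% lower) and 2 had an unadjusted p under 0.05. The 4 genes that rose at maturation were also above the GV stage in the treated oocytes. Against WT_FGO, limma called Chek1 (2.89 ± 0.39, adjusted p = 0.0178), Trp53bp1 (4.54 ± 0.58, adjusted p = 0.0139), Msh6 (2.99 ± 0.47, adjusted p = 0.0276) and Bard1 (adjusted p = 0.0131, at least 2.79-fold) higher and 0 lower, with backgrounds of 2.86% higher and 1% lower. At an unadjusted p under 0.05, 8 were higher (background 9.51%) and 2 lower (background 10.4%), and voom called 6 higher (background 5.82%) and 2 lower (background 13.7%). Over all genes, centring moved the calls from 433 higher and 152 lower to 654 higher and 56 lower. This comparison shares the WT_FGO libraries with that of maturation, and without any 1 metaphase II library it called none of the 37.

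Between the metaphase II groups, Palb2 was the 1 gene among the 18 with at least 60 reads whose ratio was past 2-fold. Its 24.5 and 28.4 FPKM in Treat_MII were both under its 56.3 and 62.8 in WT_MII, and the difference was -1.14 ± 0.77 (95% interval -3.02 to 0.73, adjusted p = 0.931, limma). It was not called in any alternative fit. For Rad18 the treated values of 57.9 and 52.2 FPKM were above both control values of 14.5 and 46.7, with a difference of 1.04 ± 0.68 (95% interval -0.62 to 2.70, adjusted p = 0.931, limma). Without overlap, 5 genes were higher in the treated libraries (Brca2, Chek1, Fancb, Fancc and Rad18, background 16.2%) and 7 lower (Bard1, Blm, Fanci, Lig3, Palb2, Pms2 and Xrcc4, background 15.6%). By ratio, Atrip and Msh3 were past 2-fold higher (background 19.9%) and Lig3, Palb2 and Xrcc2 past 2-fold lower (background 21.2%). With WT_MII replicate 2 left out, the control mean came from a single library, and more of the 37 genes were past 2-fold in each direction. The share over all genes in that setting is not given, so no response of these genes is read from it. The median treatment difference was 0.15 over the 37 genes against 0 over all tested genes.

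The intervals show how much the data allow. For Chek1, Trp53bp1, Msh6, Brca1 and Xrcc5 the 95% interval of the treatment difference stayed within 1.57 on the log2 scale on both sides of 0, with Trp53bp1 at 0.15 ± 0.58 (-1.26 to 1.57), Msh6 at 0.08 ± 0.47 (-1.07 to 1.23) and Xrcc5 at 0.09 ± 0.41 (-0.91 to 1.09). The interval of Brca2 ran from -1.62 to 2.67 and that of Lig4 from -1.22 to 2.71. These widths do not show that treated and control oocytes had like levels of any of these genes.

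**Figure D3:**
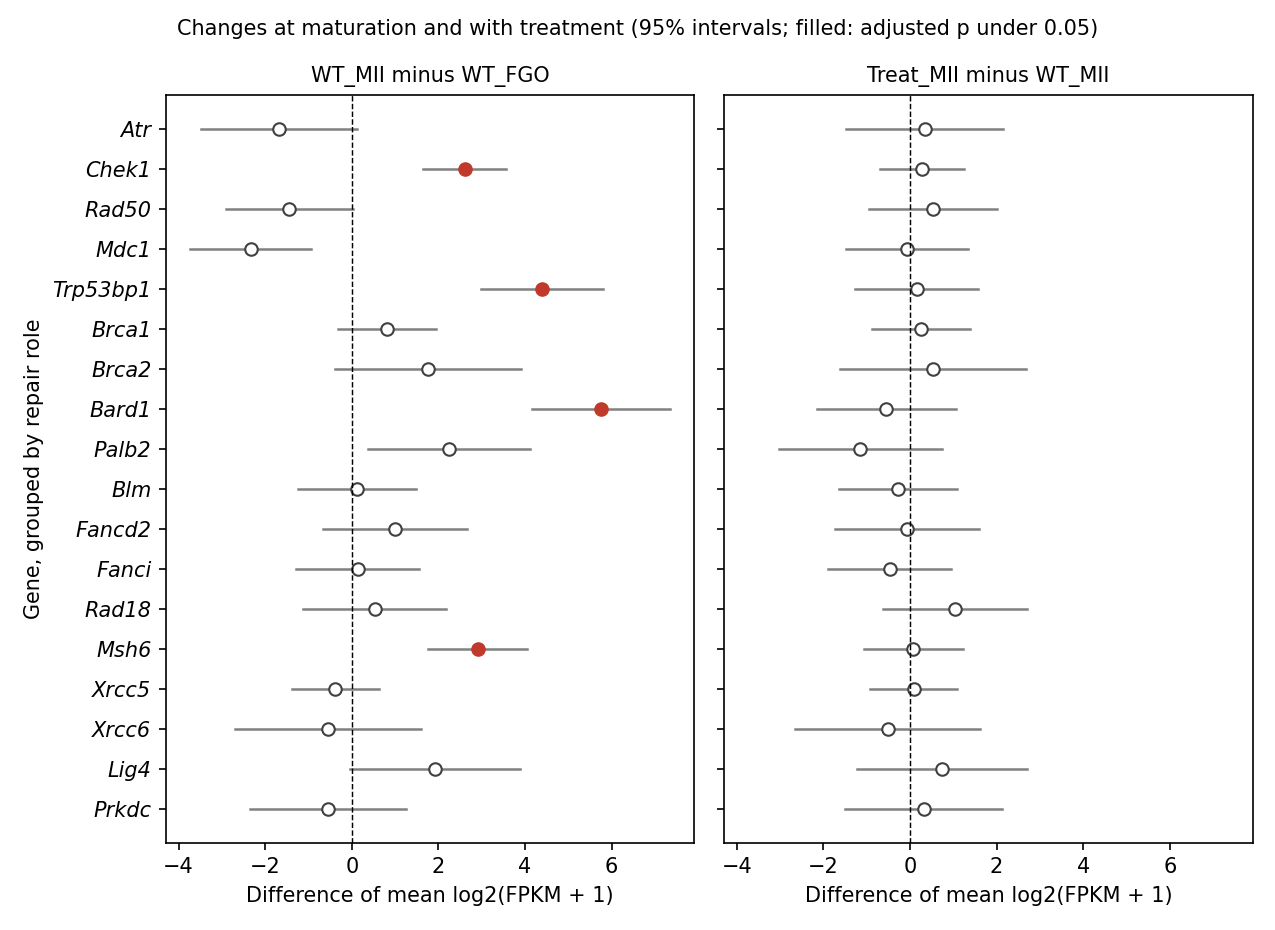
Difference of mean log2(FPKM + 1) (horizontal axes) for the 18 genes with at least 60 reads at maturation (left) and with the treatment (right), with 95% intervals from the limma fit; filled points have an adjusted p under 0.05. Chek1, Trp53bp1, Bard1 and Msh6 are filled on the left, and on the right all 18 intervals include 0.

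The transcripts of the genes were searched for the letters of an RNA G-quadruplex pattern, because the ligand acts on such structures. The pattern was 4 stretches of 3 or more G with 1 to 7 bases between neighbouring stretches, on the transcript strand. A match describes the sequence and is not a measured structure. The study mapped such structures in oocytes with an antibody and sequencing, and those data were not analysed here. 1 of 36 annotated 5′-UTRs held the pattern (all tested genes 7.23%), none of the 37 coding sequences did (4.52%) and 1 of 37 3′-UTRs did (10.7%). For each gene 1 annotated transcript was searched, that with the longest coding sequence, and other transcripts were not. The 2 matches are shown because they are the places where these transcripts carry the letters. Capitals mark the whole match (GRCm38).
Xrcc6 5′-UTR, chr15:82016037-82016062, plus strand: GGGGTGGGGAGAAGAGGGAGCGGGGG
Lig4 3′-UTR, chr8:9969101-9969130, minus strand: GGGCCTCCAGGGCCTCCAGGGCCTCCAGGG
Xrcc6 footprints were at 43.2 and 18.99 FPKM in WT_MII and 28.1 and 13.9 in Treat_MII, and those of Lig4 at 8.87 and 30.1 in WT_MII and 24.3 and 33.2 in Treat_MII. Both pairs of groups overlapped. None of the 4 genes that rose at maturation held the pattern.

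The last 100 bases of the 3′-UTR were also searched for the letters of the cytoplasmic polyadenylation element, TTTTAT or TTTTAAT in DNA letters on the transcript strand. This search was added with the results known. They were found in 4 of the 34 genes with such a stretch, or 11.8%, and in 18.7% of the tested genes. The matches are shown with 12 bases on either side, with the element in capitals (GRCm38).
Bard1, chr1:71027575-71027604, minus strand: aatgtgtgtaatTTTTATtttttcctaatg
Fancm, chr12:65131980-65132009, plus strand: ctcaattctgaaTTTTATcagctggtgggc
Rad54l, chr4:116097006-116097035, minus strand: gcccaaaatttaTTTTATaagaaaaacttt
Brca2, chr5:150569697-150569726, plus strand: ctacaactatcaTTTTATatacaaaataaa
Bard1 passed the test at maturation and the other 3 genes did not. Chek1 and Trp53bp1, which passed it too, held no such letters in this stretch, and Msh6, with an annotated 3′-UTR of 87 bases, was not searched. The polyadenylation signal AATAAA or ATTAAA was in 73.5% of the 34 genes and in 79.5% of the tested genes. The Chek1 transcript searched held no such signal in this stretch. These are matches of letters in 1 annotated transcript per gene and not measured sites.

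Of 100 other repair genes listed beside the 37, 97 were in the table and 91 were tested. At maturation 8 rose and 3 fell (limma), that is 8.79% higher and 3.30% lower, beside 3.67% and 3.09% over all tested genes. Among the 33 of them with at least 60 reads the shares were 24.2% higher and 9.09% lower, beside 16.3% and 8.39% of all such genes. Mdm2, which limits p53, had the smallest adjusted p and went from 0 in both WT_FGO libraries to 177.7 and 191.9 FPKM in WT_MII and 158.4 and 148.4 in Treat_MII (adjusted p = 0.00185, limma). Hus1, a part of the clamp through which ATR is activated, was listed at 0 in both WT_FGO libraries and at 21.6 and 169.5 FPKM in WT_MII (adjusted p = 0.0250, limma). Those WT_MII values were 3 and 33 reads, so the lower value lay at the floor of 3 reads. In Treat_MII Hus1 was at 211.3 and 189.4 FPKM. The other risers were Atrx, Ddb1, Ddb2, Msh4, Rev1 and Wrn, and those that fell were Ddx11, Rpa1 and Uhrf1. Trp53, the target of MDM2, was at 34.7 and 15.3 FPKM in WT_FGO and 84.3 and 102.8 in WT_MII (adjusted p = 0.0879, limma). Trp63, which acts in oocyte quality control, was at 22.9 and 32.2 FPKM in WT_FGO and 21.0 and 43.1 in WT_MII and was not called. With the treatment none of the 91 was called (limma, background 0% higher and 0% lower). None had an unadjusted p under 0.05, against 3.81% higher and 2.02% lower over all genes.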

How the data were processed

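The authors deposited FPKM per gene and library. Per the labels, reads were trimmed and placed on mm10 with tools that include cutadapt 1.14, Bowtie2 2.2.2 and STAR 2.5.3a; the counting program and annotation release are not given in the sources used here. From 22442 rows, 26 with a repeated name were left out. FPKM times the union coding length in GENCODE release M21 gave whole reads for 96.4% of genes (tolerance 0.02 reads). These recovered reads summed to 88663 to 313872 per library, and the library totals implied by the FPKM values were 94309 to 331304. log2(FPKM + 1) was fitted for genes averaging 1 FPKM or more in limma 3.58.1 (R 4.3.3; lmFit, eBayes with a trend, 3 groups, all 6 libraries), with Benjamini-Hochberg adjustment over 15127 genes and calls under 0.05. Scripts were tested on simulated data. Folds against 0 use a floor of 3 reads per library; floors and intervals cover counting error only, since PCR copies are not independent. Values in every library are given for genes called, with at least 60 reads, or past 2-fold with the treatment without overlap at a mean of at least 10 FPKM. The 37 genes and the lists were chosen with earlier results of these data known. Replicate numbers were not taken as pairs, since deviations of same-numbered libraries correlated at 0.0342, 0.0176 and 0.0189 over 2706 genes. Some genes of the lists are not reported here.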

Additional observations from a re-analysis of the deposited data

How the results depend on the processing

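The depth of the GV libraries limits the genes with few reads. At maturation 4 of the 37 genes were called, and the same 4 with a pseudocount of 0.1, without a filter, centred and with quantile normalization. The number called was 5 for genes averaging 5 FPKM or more, 0 with only the compared groups, 1 without a trend, 9 with voom on recovered reads and 7 with at least 60 reads (added after seeing the data), and 0 to 6 when a library was left out. For the treated oocytes against WT_FGO the 4 genes became 0 with only the compared groups, 0 without a trend, 8 with voom and 7 with at least 60 reads, and 0 to 7 when a library was left out. With the treatment 0 were called in every alternative. Genes past 2-fold numbered 17 to 24 at maturation and 5 to 13 with the treatment when a library was left out, with 13 without WT_MII replicate 2 against 5. The 11 other repair genes called at maturation became 0 with only the compared groups, 1 without a trend, 25 with voom and 18 with at least 60 reads, and 0 to 16 when a library was left out. With the treatment the 0 other genes called became 0 to 1, the 1 being without Treat_MII replicate 2. These counts join both directions and stand without the share over all genes in the same setting. They are therefore not read as results about these genes. The cause of the differences between settings was not tested.

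With the replicate number as a block, the 4 genes called at maturation stayed 4, 0 were called with the treatment, 3 of 4 were called for the treated oocytes against WT_FGO, without Msh6, and 6 of 11 other repair genes were called at maturation.

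Some differences that passed no test changed sign. Centred, Xrcc5 was 0.15 at maturation and, with the treatment, Mdc1 was 0.0104 and Fancd2 0.0213. With quantile normalization Prkdc was 0.0688 at maturation, and Mdc1 0.0274 and Fancd2 0.00844 with the treatment. When a library was left out, the maturation differences ran from -0.41 to 0.67 for Blm, from -0.21 to 0.47 for Fanci, from -0.28 to 1.34 for Rad18 and from -1.57 to 0.47 for Xrcc6. The treatment differences ran from -0.0132 to 0.70 for Atr, -0.0150 to 1.08 for Rad50, -0.23 to 0.0905 for Mdc1, -0.0128 to 0.51 for Brca1, -0.17 to 0.33 for Msh6, -1.08 to 0.0605 for Xrcc6 and -0.0810 to 1.57 for Lig4.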
